A study of Macaca fascicularis with 3 samples.

Results

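miR-451, miR-144 and the miR-486 arms miR-486-5p and miR-486-3p are miRNAs known for their abundance in red blood cells. These 4 mature miRNAs, listed as mfa-miR-451, mfa-miR-144, mfa-miR-486-5p and mfa-miR-486-3p, were taken by name from the 432 counted in small RNA libraries of kidney cortex, the tissue of glomeruli and proximal tubules that surrounds the medulla. The tissue came from 3 naïve cynomolgus monkeys (Macaca fascicularis) aged 2 to 3 years, with 1 library per animal, and no animal was treated or modified. All libraries therefore formed 1 group, and the only comparisons possible were between miRNAs and between animals. The labels do not say whether the kidneys were flushed of blood before they were frozen. The deposited tables paired miR-451 with human miR-451a and miR-144 with human miR-144-3p, so the counted arm of miR-144 was the 3p arm. No second arm of the miR-451 or miR-144 hairpin was among the listed names.

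miR-144 and miR-451 are cut from a single primary transcript, which the erythroid factor GATA1 switches on as red cells mature. The miR-451 hairpin is too short for Dicer and is instead cut by the slicer protein AGO2, after which its 3′ end is trimmed, so it yields 1 strand. Among its known targets is YWHAZ, and among those of miR-144 is the stress response factor NFE2L2. The miR-486 hairpin lies in the ankyrin gene ANK1 and is made both in red cell precursors and in skeletal and heart muscle. Mature red cells carry these miRNAs in the circulation, and any piece of kidney holds some blood in its vessels.

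The libraries held 3957188 to 4707892 counts assigned to listed miRNAs. A floor of 3 counts corresponded to 0.637 to 0.758 CPM (counts per 1000000 listed counts), and each of the 4 miRNAs lay above it in every library. The library of animal 3 stood apart. On TMM-scaled CPM + 1, where TMM is edgeR's trimmed mean of M values, 26 of the 391 miRNAs averaging 10 counts or more per library lay at a log2 deviation of -2 or below there from the mean of the other libraries. In animals 1 and 2 the same number was 2. A cause for its difference was not tested, and the spans, ratios and profile distances below are also given without it where it moved them most.

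The 4 miRNAs lay far apart in abundance. mfa-miR-451, the strand made without Dicer, had 18812, 18363 and 21313 counts in animals 1, 2 and 3, or 4369, 3900 and 5386 CPM. Its mean was 4552 CPM ± 759 (SD, n = 3), which placed it at rank 40 of 432. All 3 libraries held it at a high level, the highest value being in animal 3 and the lowest in animal 2.

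mfa-miR-144, from the same primary transcript, had 2724, 1995 and 1289 counts, or 633, 424 and 326 CPM in animals 1, 2 and 3. Its mean was 461 CPM ± 157 (SD, n = 3), at rank 107. Here animal 1 was highest and animal 3 lowest. The Wilson 95% confidence intervals, which cover counting error only, ran from 609 to 657 CPM for animal 1, from 406 to 443 for animal 2 and from 308 to 344 for animal 3, so that no pair of them overlapped.

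mfa-miR-486-5p, the guide arm of its hairpin, had only 89, 201 and 187 counts, or 20.7, 42.7 and 47.3 CPM. Its mean was 36.9 CPM ± 14.2 (SD, n = 3), at rank 231. Animal 1 was low, with a 95% interval of 16.8 to 25.4 CPM that did not reach those of animal 2 (37.2 to 49.0) or animal 3 (41.0 to 54.5). The intervals of animals 2 and 3 overlapped.

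mfa-miR-486-3p, the opposite arm, had 12, 32 and 24 counts, or 2.79, 6.80 and 6.06 CPM, with a mean of 5.22 CPM ± 2.14 (SD, n = 3) at rank 344. Animal 1 was again the lowest. At this depth its 95% interval of 1.59 to 4.87 CPM overlapped both that of animal 2 (4.81 to 9.60) and that of animal 3 (4.08 to 9.02).

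**Figure D1:**
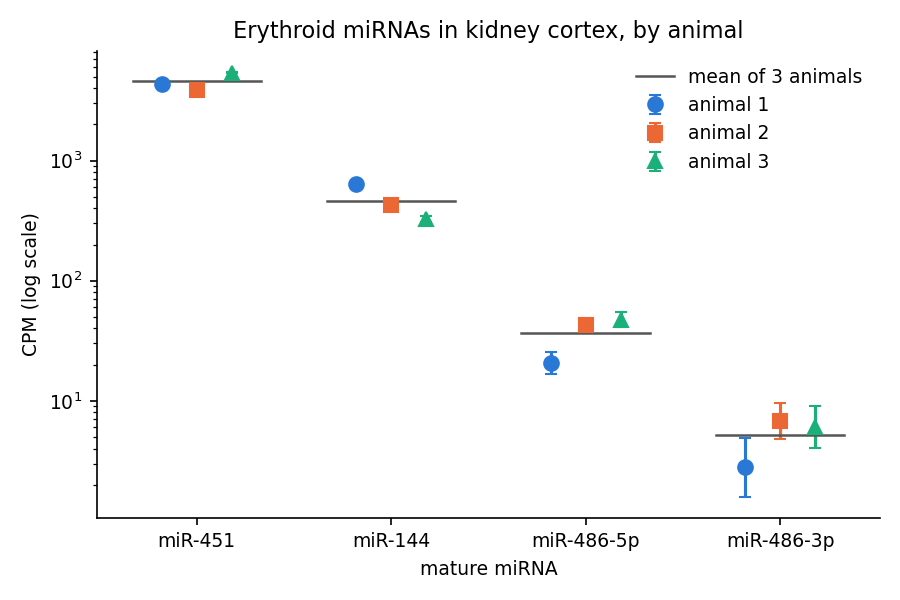
Level of the 4 erythroid miRNAs in each kidney cortex library, in CPM on a log axis; points are animals, bars are Wilson 95% intervals for counting error and horizontal lines are means of 3 animals. miR-451 lies between 3900 and 5386 CPM, miR-144 between 326 and 633, miR-486-5p between 20.7 and 47.3, and miR-486-3p between 2.79 and 6.80.

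The order miR-451, miR-144, miR-486-5p, miR-486-3p held in 3 of 3 animals. Within libraries, where scaling plays no part, miR-451 exceeded miR-144 by a mean log2 ratio of 3.35 ± 0.64 (SD, n = 3; exact two-sided sign-flip permutation p = 0.25). miR-144 exceeded miR-486-5p by 3.68 ± 1.12, and miR-486-5p exceeded miR-486-3p by 2.83 ± 0.16, both log2 ratios with the same exact permutation p of 0.25. With 3 animals 0.25 is the smallest p this test allows, so none of the 3 steps could pass a threshold of 0.05.

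Single ranks were not resolved from their neighbours in the list. miR-451 was next to miR-194-5p, a miRNA of kidney and gut epithelium at 4862 CPM ± 408 (SD, n = 3), which was the higher of the pair in 2 of 3 animals. Below it came miR-107-3p, at 5920, 6724 and 477 CPM in animals 1, 2 and 3 and thus above miR-451 in 2 of 3. miR-144 lay between miR-423-3p at 461 CPM ± 169 and miR-196b-5p at 456 CPM ± 50.3, means that differed from its own by less than the SD. miR-486-5p had let-7f-3p (38.1 CPM) and miR-193a-5p (36.5 CPM) as neighbours, and miR-486-3p had miR-496 (5.25 CPM) and miR-183-3p (5.22 CPM).

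**Figure D2:**
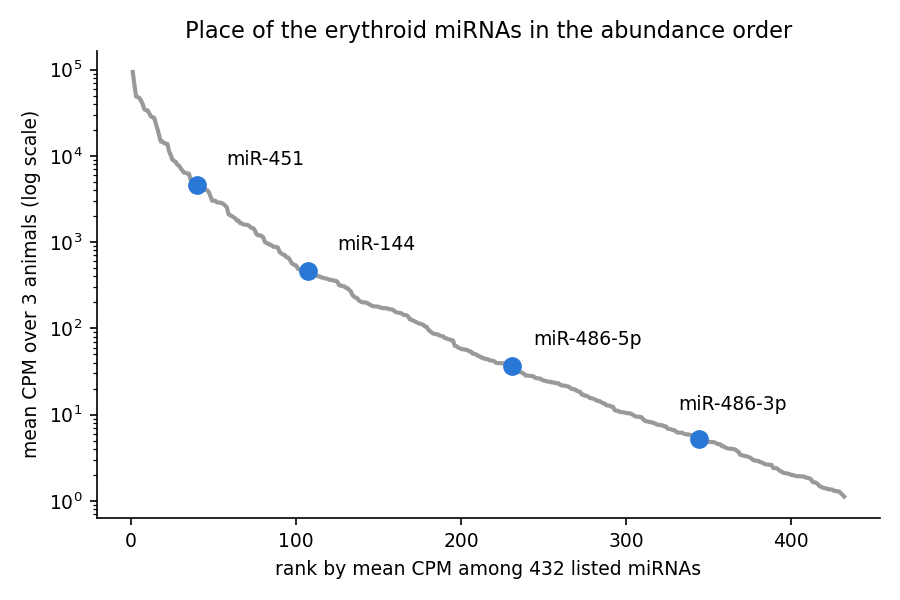
Mean CPM over 3 animals, on a log axis, against rank for the 432 listed miRNAs, with the erythroid miRNAs as large points. They sit at ranks 40, 107, 231 and 344, from near the top of the list to its sparse end.

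Most of what the 4 names contributed was miR-451. It made up 86.9%, 89.2% and 93.4% of their summed counts in animals 1, 2 and 3, while miR-144 made up 12.6%, 9.69% and 5.65%. The miR-486 arms together held 101, 233 and 211 counts. Animal 1 gave them 0.00235% of all listed counts, with Wilson 95% limits of 0.00193 and 0.00285. Animal 2 gave 0.00495% (limits 0.00435 and 0.00563) and animal 3 gave 0.00533% (limits 0.00466 and 0.00610), so that animal 1 lay apart from both. The summed share of the 4 names thus reports on miR-451 and says little about miR-486. Leaving miR-486 out moved the mean share from 0.505% ± 0.0696 (SD, n = 3) to 0.501% ± 0.0694.

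The animals were next compared on TMM-scaled CPM, which corrects for differences in composition between libraries. miR-451 had 4322, 3708 and 5727 scaled CPM in animals 1, 2 and 3, a span of 1.54-fold between highest and lowest. miR-144 had 626, 403 and 346, a span of 1.81-fold in another order. miR-486-5p had 20.4, 40.6 and 50.2, a span of 2.46-fold, and miR-486-3p had 2.76, 6.46 and 6.45, a span of 2.34-fold. The 2 miRNAs of 1 primary transcript thus took opposite ends in animal 3, where miR-451 was highest and miR-144 lowest, and both miR-486 arms were lowest in animal 1.

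These orders did not rest on the choice of scaling for miR-451, miR-144 and miR-486-5p, which kept them with totals, with DESeq2 size factors and in the authors' normalized values. For miR-486-3p animal 1 was the lowest under each of these scalings, but animals 2 and 3 changed places under DESeq2 size factors (6.30 and 6.60 scaled CPM). In bulk tissue, fewer cells of a type and less RNA per cell cannot be told apart.

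Of the 391 miRNAs averaging 10 counts or more, 39.9% spanned more than 2-fold, and 2 of the 4 did, both being arms of miR-486. The median span was 2.08-fold over the 4 miRNAs and 1.71-fold over all 391. By span, miR-451 stood at percentile 39.4 of the 391 miRNAs, miR-144 at 53.7, miR-486-3p at 72.4 and miR-486-5p at 74.9. Each span depended on a single animal. Without animal 1 the span of miR-486-5p was 1.24-fold, that of miR-486-3p 1.002-fold and that of miR-144 1.16-fold. Without animal 3 the span of miR-451 was 1.17-fold.

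A chi-square test of whether a miRNA's counts were spread over the 3 libraries by their scaled sizes, Benjamini-Hochberg adjusted across all 391 with calls at 0.05, called 80.6% of them, so a call by itself sets no miRNA apart. It called 4 of the 4. The test statistic of miR-451 was 1970, and the adjusted p was 1.22e-86 for miR-144, 9.87e-12 for miR-486-5p and 0.0290 for miR-486-3p. This test sets the spread between animals against the counting error of reads and compares libraries, not conditions. Without animal 1 the test called 65.2% of 391 miRNAs, and of the 4 only miR-451 and miR-144, the adjusted p being 0.0529 for miR-486-5p and 0.994 for miR-486-3p. Without animal 2 it called 75.4% of 386 miRNAs and without animal 3 it called 59.2% of 400, the 4 among them in both cases.

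**Figure D3:**
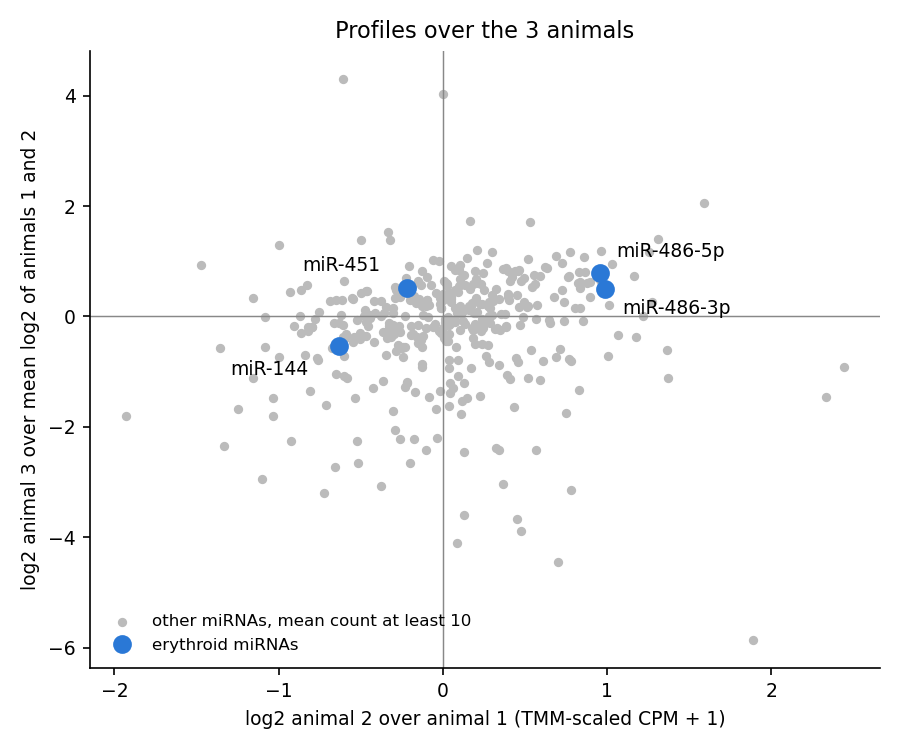
Each point is 1 of the 391 miRNAs, with the log2 ratio of animal 2 over animal 1 on the x axis and the log2 value of animal 3 minus the mean log2 of animals 1 and 2 on the y axis, from TMM-scaled CPM + 1. Both miR-486 arms lie together at the upper right, miR-451 at the upper left and miR-144 at the lower left.

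Ratios within a library showed the split of miR-451 and miR-144 free of any scaling. Animal 1 had 6.91 counts of miR-451 per count of miR-144, with Wilson 95% limits of 6.63 and 7.19. The ratio was 9.20 (limits 8.79 and 9.64) for animal 2 and 16.5 (limits 15.6 and 17.5) for animal 3. The intervals did not overlap, and the ratio spanned 2.39-fold between animals. Without animal 3 the span of the ratio was 1.33-fold, and animals 1 and 2 still differed by more than counting error. The 2 miRNAs of 1 primary transcript therefore did not keep a fixed proportion in these libraries. Only animal 3, whose library stood apart, had them at opposite ends. Scaled without animal 3, both were higher in animal 1 than in animal 2. miR-451 had 4457 and 3824 CPM there, and miR-144 had 645 and 415. With 1 library per animal, a trait of an animal and one of its library cannot be told apart.

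To give that spread a scale, it was set beside the opposite arms of 122 hairpins, which also share a precursor. With 1 added to each count, the SD of the log2 ratio of miR-451 to miR-144 over the 3 animals was 0.64. The SD of the log2 arm ratio had a median of 0.62 over the 122 hairpins, with quartiles at 0.31 and 1.10. It was as large as that of miR-451 and miR-144, or larger, in 58 hairpins. Without animal 3 the SD was 0.29 for miR-451 to miR-144, against a median of 0.33 and quartiles of 0.17 and 0.57 over the hairpins, 69 of which were as wide or wider. With or without that library the spread of the pair lay near the median for arms of 1 hairpin. That cannot show whether the spread of the pair was usual. Some hairpins had an arm with 0 counts in a library, such as miR-127, where counting error widens the SD. miR-451 and miR-144 had at least 1289 counts in each library, and they are separate hairpins, not arms of 1. This comparison was chosen after the values of the pair were seen.

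The ratio of the miR-486 arms moved less between the animals, though within wide counting error. The 5p arm had 7.42 counts per count of the 3p arm in animal 1 (95% limits 4.10 and 13.4), 6.28 in animal 2 (limits 4.33 and 9.10) and 7.79 in animal 3 (limits 5.11 and 11.9). The 5p arm was higher in 3 of 3 animals, and the 3 intervals overlapped. With 1 added to each count, its arm ratio had an SD of 0.15 on the log2 scale, and 8 of the 122 hairpins had a smaller one. Without animal 3 the SD was 0.13, and 20 hairpins had a smaller one. The size of the ratio was moderate, at rank 83 of 122 from the most to the least unequal arms. With 12 to 32 counts on the 3p arm, a change of arm use within these intervals was not detectable at this depth. The small SD therefore does not show that the arm ratio is steady.

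**Figure D4:**
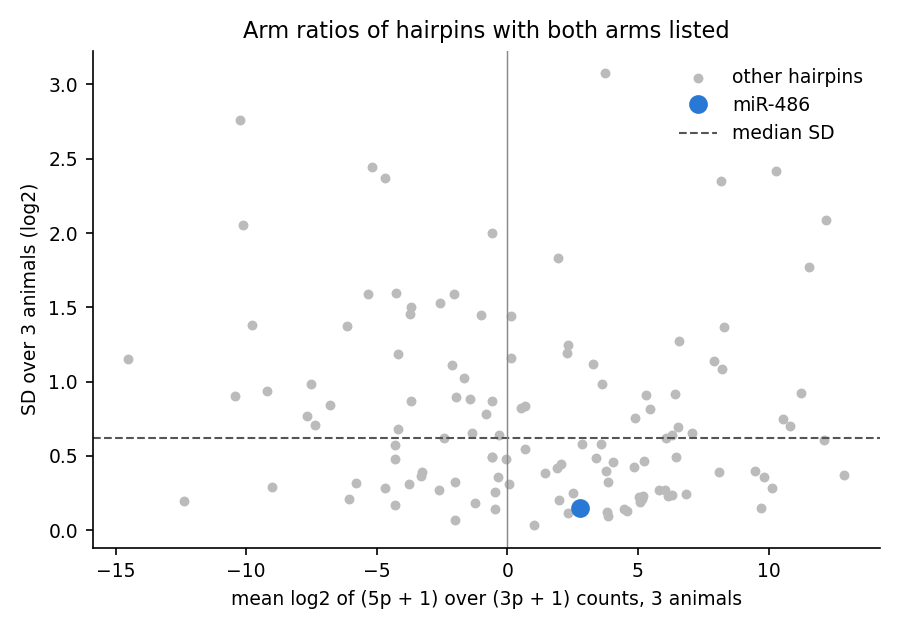
Mean log2 ratio of 5p to 3p counts, 1 added to each, on the x axis and its SD over 3 animals on the y axis for 122 hairpins with both arms listed. miR-486 lies at an SD of 0.15, below the dashed median of 0.62.

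Across families, the ratios to miR-486-5p spanned more than that of the miR-486 arms, which spanned 1.24-fold. miR-451 outnumbered miR-486-5p by 211-fold in animal 1, 91.4-fold in animal 2 and 114-fold in animal 3, a span of 2.31-fold. That was no wider than the 2.39-fold of miR-451 to miR-144. miR-144 outnumbered miR-486-5p by 30.6-fold, 9.93-fold and 6.89-fold in animals 1, 2 and 3, a span of 4.44-fold in this ratio. Animal 1, which had the most miR-144 and the least miR-486-5p, gave the highest value of both ratios to miR-486-5p. Counts of different miRNAs compare reads and not molecules, since the yield of reads per molecule was not measured for each sequence.

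Other miRNAs known from blood were set beside them. Of the list of miR-16, miR-25, miR-92a, miR-93 and miR-363, which red cells also carry, all 5 were represented, by 8 names that summed to 9896 to 11099 CPM. Most of this was miR-16-5p, a miRNA found in nearly every cell type, at 9011, 9074 and 7540 CPM in animals 1, 2 and 3. miR-92a-3p had 1400, 1552 and 1819 CPM, and miR-363-3p had 415, 236 and 287 CPM. On TMM-scaled CPM, miR-25, like miR-451, was highest in animal 3 and lowest in animal 2, whereas miR-16-5p was highest in animal 1 and lowest in animal 3. The 8 names therefore did not share 1 order over the animals.

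The leucocyte list (miR-142, miR-150 and miR-223) summed to 1621, 1727 and 1518 CPM, and none of its 4 names had 0 counts in any library. miR-451 alone exceeded this sum in all 3 animals, and miR-144 lay below it in all 3. The sum spanned 1603 to 1642 on TMM-scaled CPM, while miR-451 spanned 3708 to 5727. Its single names varied more than the sum and in different orders. miR-142-3p spanned 1.26-fold, miR-150-5p 1.55-fold, miR-142-5p 1.56-fold and miR-223 1.68-fold, against 1.54-fold for miR-451. How far blood held in the tissue moved any of these values was not tested.

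Since miR-486 is also made in muscle, the muscle list was examined as well. It summed to 1030, 761 and 938 CPM over 11 names. miR-208a and miR-208b were not among the listed names. Its largest members were miR-1-3p at 415 CPM ± 113 (SD, n = 3) and miR-499-5p at 382 CPM ± 100, each well above miR-486-5p. miR-1-3p, at 543, 375 and 328 CPM, was highest in animal 1, where miR-486-5p was lowest. miR-133b-3p (9.99, 14.7 and 20.2 CPM) and miR-133c-3p (18.3, 33.1 and 37.4 CPM) were lowest in animal 1 and highest in animal 3, the order of miR-486-5p. miR-133a and miR-133d-3p held it too. On TMM-scaled CPM, that order was also the commonest of the 6 possible ones, held by 99 of the 391 miRNAs (25.3%). The other names took other orders, except miR-1-1-5p, whose order depended on the scaling. miR-499-5p (400, 274 and 471 CPM), miR-499-3p and miR-206 were highest in animal 3 and lowest in animal 2. miR-133c-5p and miR-133d-5p fell from animal 1 to animal 3. miR-1-1-5p, with only 9, 11 and 9 counts, was highest in animal 2 on CPM (2.09, 2.34 and 2.27). On TMM-scaled CPM (2.07, 2.22 and 2.42) it was lowest in animal 1 and highest in animal 3, the order of miR-486-5p. The names of the miR-133 family are near-identical, and the sources do not state how reads shared between them were counted. miR-133c-5p and miR-133d-5p had the same counts in every library (11, 9 and 6), and both entered the sum, so they are not separate observations. Whether muscle or blood was the source of the miR-486 reads was not tested.

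The miRNAs with the most similar profiles over the animals were found by the Euclidean distance between mean-centred profiles of log2(TMM-scaled CPM + 1), among miRNAs averaging 100 counts or more. With only 3 animals a profile has few degrees of freedom, and close neighbours are to be found for any miRNA. Nearest to miR-451 was miR-150-5p, a miRNA of mature lymphocytes, at a distance of 0.0060 against a median of 0.62 over 258 miRNAs. It had 509, 435 and 676 scaled CPM in animals 1, 2 and 3. The other names of the leucocyte list took other orders, miR-142-3p and miR-223 being highest in animal 2 and miR-142-5p in animal 1. miR-139-5p and miR-28-5p followed at 0.034 and 0.035. miR-144 lay at a distance of 0.91 from miR-451, and 197 of the 258 miRNAs were closer to miR-451 than it was. From animals 1 and 2 alone, that distance was 0.29 against a median of 0.27, and 143 of the 258 were closer. The distance of miR-150-5p was then 0.0049, with 1 miRNA closer.

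Nearest to miR-144 were miR-654-3p at 0.041, miR-495-3p at 0.090 and miR-411-3p at 0.14, against a median of 0.82. miR-654-3p had 101, 62.6 and 53.2 scaled CPM in animals 1, 2 and 3. For miR-486-5p the nearest were miR-132-3p at 0.018, miR-424-5p at 0.067 and miR-489-3p at 0.094, against a median of 0.98, and 10 of the 258 were closer to it than its own opposite arm, at 0.24. From animals 1 and 2 alone the arms were 0.028 apart, and 1 of the 258 was closer to miR-486-5p. For miR-486-3p, whose mean count was below 100, they were miR-409-3p, miR-532-3p and miR-146b-5p at 0.11, 0.12 and 0.12, against a median of 0.87 over 259.

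In plasma, the ratio of miR-451 to miR-23a-3p is in common use as a score of red cell rupture, miR-23a-3p serving as the steady partner. In these libraries miR-23a-3p had 44946, 49971 and 8209 counts in animals 1, 2 and 3 and spanned 4.68-fold on TMM-scaled CPM, more than the 1.54-fold of miR-451. Without animal 3 the order turned round, with spans of 1.02-fold for miR-23a-3p and 1.17-fold for miR-451. The log2 ratio of miR-451 to miR-23a-3p was -1.26, -1.44 and 1.38. The high value of animal 3 thus came mostly with a low denominator. Against miR-16-5p, which spanned 1.11-fold, the log2 ratio of miR-451 was -1.04, -1.22 and -0.49, so that animal 3 was again highest, by a smaller margin.

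**Figure D5:**
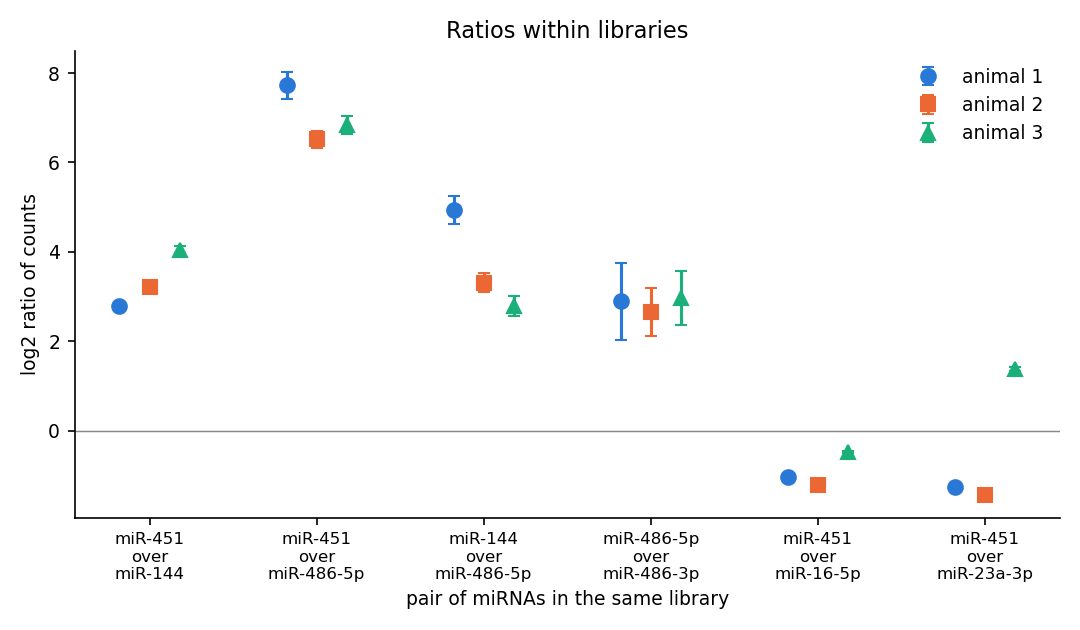
Log2 ratio of counts for 6 pairs of miRNAs in the same library; points are animals and bars are Wilson 95% intervals for counting error. The ratio of the miR-486 arms has wide intervals that overlap between animals. That of miR-451 to miR-144 is 16.5 in animal 3 against 6.91 in animal 1 on the linear scale. That of miR-451 to miR-23a-3p is above 0 in animal 3 only.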

How the data were processed

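Small RNA libraries were made, per the labels' protocols, from 25 to 30 mg of frozen kidney cortex, 5 µg of total RNA and 12 ng of enriched small RNA, with no molecular identifiers described. Per the file headers, the authors deposited raw counts of reads mapped with 0 mismatches and kept miRNAs having at least 15 reads. The aligner, the miRNA release and the handling of length variants and shared reads are not given in the sources used here. The authors' deposited normalized signal, made with edgeR per the file headers, equalled the count times 1 factor per library for 100% of values. It served only as an alternative.

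CPM, ranks, shares and ratios were computed from the counts in Python 3.11.15 with scipy 1.17.1. TMM factors came from edgeR 4.0.16 and size factors from DESeq2 1.42.0. Homogeneity tests ran over all 391 miRNAs averaging 10 counts or more. The test was checked on data simulated with counting error and set changes only, so the check does not cover ordinary variation between animals. The text names the 4 miRNAs, the 3 nearest profiles of each, neighbours in rank, miR-23a-3p and list members. Members and lists were chosen with earlier results of these data known. Alternatives were other scalings, filters, a pseudocount, a narrower set and leaving out each animal. Mature sequences and seeds were not used here.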

Additional observations from a re-analysis of the deposited data

How the results depend on the processing

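Of 93 recalculated values, 88 stayed within 1 SD over the animals, kept their direction or, for counts, stayed within 1.5 times. Several could hardly have moved further, such as means over 2 of 3 animals. The other 5 came from leaving out 1 animal. With 1 animal left out, the span of miR-451 ranged from 1.17 to 1.54 and that of miR-144 from 1.16 to 1.72. That of miR-486-5p ranged from 1.24 to 2.59 and that of miR-486-3p from 1.002 to 2.46. The upper ends of the miR-486 arms lay above their values from all 3 animals because the TMM factors were refitted. Under other scalings of all 3 animals, the span of miR-451 reached 1.62 with DESeq2 size factors. In the authors' normalized values miR-144 reached 1.97 and miR-486-3p 2.56. With 1 animal left out, the number of the 4 miRNAs called by the homogeneity test ranged from 2 (without animal 1) to 4, while 59.2% to 75.4% of all tested miRNAs were called. With all 3 animals, 4 of the 4 were called under each scaling and without a filter, as were 75.9% to 81.6% of all tested. At a mean count of at least 100 miR-486-3p was not tested, and 3 of 3 were called, as were 94.6% of 259 miRNAs. Recalculating ratio spreads and profile distances without animal 3 was also added after seeing the data. Dropping repeated names whose counts were identical, a setting for the spans added after seeing the data, moved none past its SD. miR-486-3p, with 12 to 32 counts, is limited most by depth. No paired analysis was possible because all 3 libraries belong to 1 group.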
